A study of Mus musculus with 12 samples.

Results

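A set of 4 genes that macrophages use to handle lipid, Apoe, Apoc2, Lpl and Cd36, were followed across 12 exon arrays of cultured mouse bone marrow cells. They were 4 of the 20711 genes that could be measured, and they were picked by name, with differences between the conditions of these arrays already known. The values of a gene came from the probe sets that name it and no other gene. Differences between conditions in these 4 genes are therefore given as a description, without p-values, and the calls that a fit over all genes made for them are only counted beside the share of all genes called.

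All cells came from bone marrow of 12 week old female C57B/6 mice that had been given 5-FU, a drug that kills cycling cells, and all carried a retroviral (MSCV) vector for Hoxa9, a homeobox gene that keeps myeloid progenitors dividing. In HOXA9+MEIS1 the second vector carried Meis1, a homeobox partner of Hoxa9. In HOXA9+MDHD it carried Meis1 without its homeodomain, the part of the protein that contacts DNA, and in HOXA9+MIY it was empty. The cells grew as primary cultures in DMEM with 15% FCS and the cytokines IL3, SCF and IL6, and each condition had 4 arrays, 2 from week 4 and 2 from week 3 of culture, numbered 1 and 2. The series describes 4 independent experiments per condition. The labels do not say whether a week 4 array and a week 3 array with the same number came from the same culture, so p-values between weeks measure the spread between these arrays.

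Lipoproteins carry cholesterol and triglyceride through blood and tissue fluid. Lipoprotein lipase, the product of Lpl, frees fatty acids from their triglyceride, and apolipoprotein C-II, the product of Apoc2, is the cofactor that this enzyme needs. Apolipoprotein E, the product of Apoe, is the ligand by which receptors take up lipoprotein remnants, and macrophages also secrete it while they export cholesterol. CD36 is a surface receptor for long-chain fatty acids and oxidised lipoproteins, present on macrophages, platelets and fat cells. Macrophages use such genes to take up, break down and pass on the lipid of the debris they clear.

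The stretches of DNA around the start sites of Apoc2, Apoe and Cd36 are shown because Meis1 and its truncated form differ in the part that contacts DNA, and because nuclear receptors that sense lipid are known regulators of such genes. They run from 250 bases before to 50 bases after a start site (RefSeq, build GRCm38.p6) and are printed 5′ to 3′ on the strand of the gene. Capitals mark matches, on either strand, to the Meis motif TGACAG, the PU.1 core GAGGAA, the C/EBP motif TTGCNNAA or the nuclear receptor motif AGGTCA. Apoc2 lies on the minus strand at chr7:19677892-19678191, Apoe, in the most upstream of 3 listed windows, on the minus strand at chr7:19699139-19699438, and Cd36 on the minus strand at chr5:17835847-17836146.
Apoc2: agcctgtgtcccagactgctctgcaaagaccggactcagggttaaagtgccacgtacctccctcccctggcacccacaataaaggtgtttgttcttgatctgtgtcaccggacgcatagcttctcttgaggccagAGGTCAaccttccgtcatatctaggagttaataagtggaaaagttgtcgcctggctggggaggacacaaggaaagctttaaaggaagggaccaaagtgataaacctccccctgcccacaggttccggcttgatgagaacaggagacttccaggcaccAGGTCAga
Apoe: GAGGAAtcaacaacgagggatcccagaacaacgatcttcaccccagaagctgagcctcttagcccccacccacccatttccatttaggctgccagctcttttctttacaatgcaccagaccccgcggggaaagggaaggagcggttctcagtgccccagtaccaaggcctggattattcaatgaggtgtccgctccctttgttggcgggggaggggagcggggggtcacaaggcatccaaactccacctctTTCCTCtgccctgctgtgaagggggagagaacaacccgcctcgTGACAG
Cd36: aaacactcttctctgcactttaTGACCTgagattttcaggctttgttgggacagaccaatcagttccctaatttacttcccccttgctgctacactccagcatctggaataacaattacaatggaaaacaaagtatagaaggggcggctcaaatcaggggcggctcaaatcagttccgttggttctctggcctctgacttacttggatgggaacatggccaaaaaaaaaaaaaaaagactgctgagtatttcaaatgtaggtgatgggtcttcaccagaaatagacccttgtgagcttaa
The Apoc2 window held AGGTCA 2 times, and the Cd36 window held it 1 time, on the opposite strand as TGACCT. The Apoe window held GAGGAA 2 times, one of them on the opposite strand as TTCCTC, and TGACAG 1 time. The other 2 Apoe windows held 1 match in all, a GAGGAA. Of 32851 windows of this length, 19.2% held TGACAG, 28.3% held GAGGAA, 10.8% held TTGCNNAA and 16.3% held AGGTCA, so that each match is a common one and describes letters only. The start site of Lpl had no window in the table.

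RNA from the arrays was measured as log2 values normalised by the authors. Pearson correlations between arrays, over all probe sets with or without a gene symbol, ran from 0.967 to 0.985. The vectors showed in the data. Against HOXA9+MIY, Meis1 was higher by 2.58 ± 0.108 on the log2 scale in HOXA9+MEIS1, which is 5.97-fold (limma, Benjamini-Hochberg adjusted p = 1.76e-07), and by 2.36 ± 0.108, 5.12-fold, in HOXA9+MDHD (adjusted p = 1.05e-06). Hoxa9 itself differed by 0.08 and 0.06 in the same comparisons and was not called (limma, adjusted p = 0.369 and 0.679). One feature of the HOXA9+MDHD arrays is given here because their label numbers come up again below. Of 23 Meis1 probe sets, 3 were at least 3 log2 units higher with the full-length than with the truncated gene. These 3 stood higher on number 1 than on number 2 arrays of HOXA9+MDHD in 6 of 6 comparisons within a week, by 0.12 to 2.79. The 3 probe sets were read on the same arrays, so the 6 comparisons are not independent. Probe set 4671083 read 9.43 and 9.07 on number 1 arrays at weeks 4 and 3. On number 2 arrays it read 8.83 and 8.95, and in HOXA9+MIY 6.35 to 6.95. On the probe set with the widest separation the values were 8.53 and 9.21 on number 1 arrays at weeks 4 and 3 and 5.74 and 6.83 on number 2 arrays, against 13.13 to 13.31 in HOXA9+MEIS1 and 5.66 to 7.30 in HOXA9+MIY.

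Apoc2, the lipase cofactor, stood furthest apart. Its log2 values in HOXA9+MEIS1 were 8.59 and 9.02 at week 4 and 9.35 and 8.83 at week 3. In HOXA9+MDHD they were 11.12 and 11.49 at week 4 and 11.30 and 11.13 at week 3, and in HOXA9+MIY 12.12 and 12.23 at week 4 and 12.44 and 12.09 at week 3. The 3 conditions formed 3 separate bands, lowest with full-length Meis1, intermediate with the truncated form and highest with the empty vector. The means were 8.95 ± 0.320, 11.26 ± 0.175 and 12.22 ± 0.158 (SD, n = 4 each). HOXA9+MEIS1 was 9.65-fold lower than HOXA9+MIY, a log2 difference of -3.27 ± 0.141 (SE from the fit over all arrays), and 4.97-fold lower than HOXA9+MDHD (-2.31 ± 0.141). HOXA9+MDHD was 1.94-fold lower than HOXA9+MIY (-0.96 ± 0.141). These arrays measure bulk RNA, in which fewer cells of a type and less RNA per cell cannot be told apart.

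**Figure D1:**
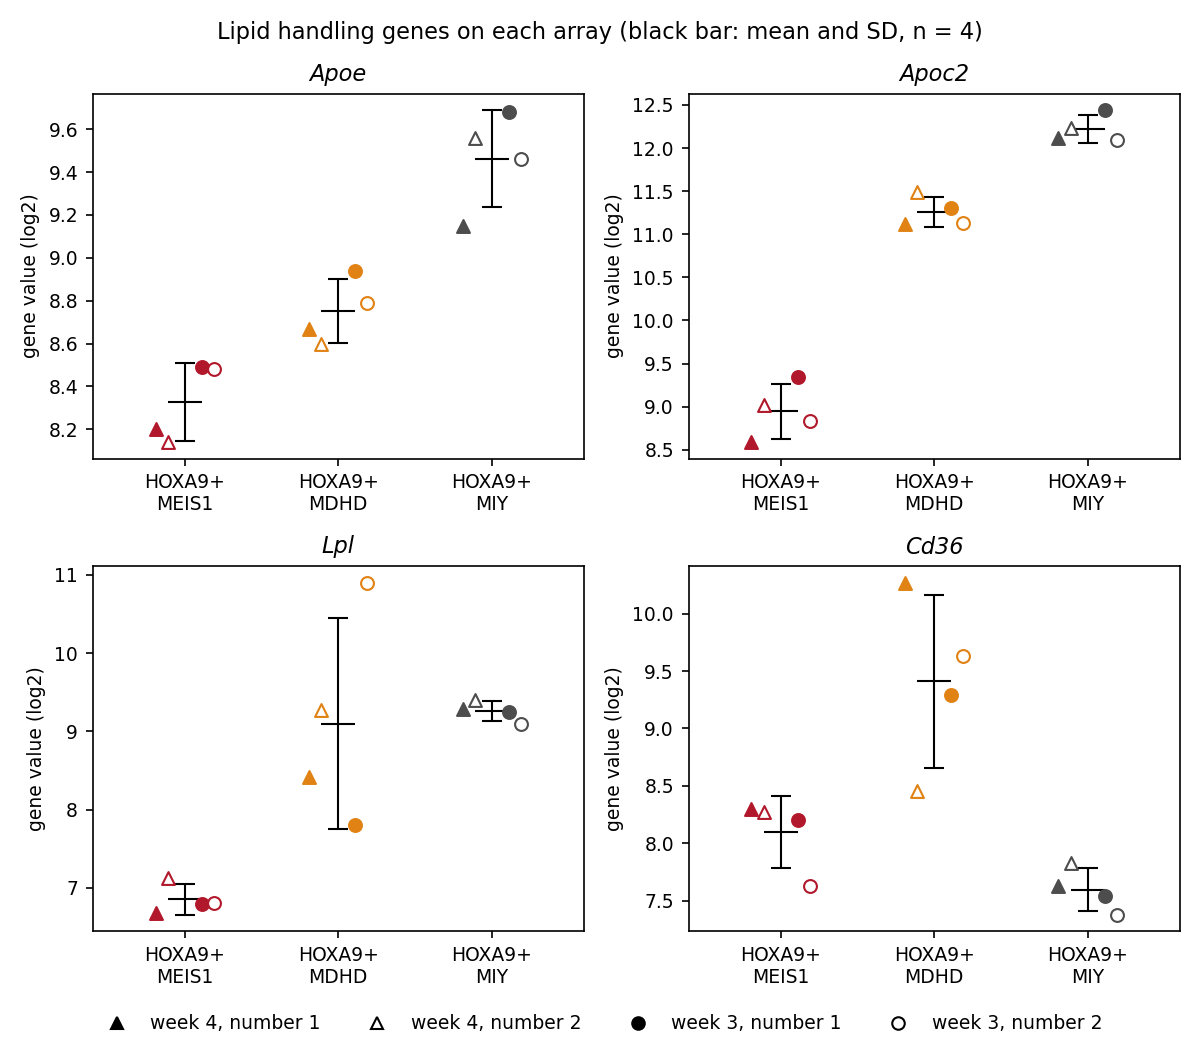
Log2 gene value (vertical axis, its own scale per gene) of Apoe, Apoc2, Lpl and Cd36 on each of the 12 arrays by condition, with week 4 as triangles, week 3 as circles, number 1 filled, number 2 open, and the mean and SD of 4 arrays as black bars. Apoc2 and Apoe form 3 separate bands, while the HOXA9+MDHD arrays spread from 7.80 to 10.90 for Lpl and from 8.46 to 10.27 for Cd36.

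Apoe, the remnant ligand, had the same order with smaller steps. Its values were 8.20, 8.14, 8.49 and 8.48 in HOXA9+MEIS1, with a mean of 8.33 ± 0.184, and 8.67, 8.60, 8.94 and 8.79 in HOXA9+MDHD, with a mean of 8.75 ± 0.149 (SD, n = 4 each; in each list the week 4 arrays 1 and 2 come before the week 3 arrays 1 and 2). In HOXA9+MIY they were 9.15, 9.56, 9.68 and 9.46, with a mean of 9.46 ± 0.224 (SD, n = 4). On this gene value no array of one condition reached into the range of another. HOXA9+MEIS1 was 2.20-fold lower than HOXA9+MIY (-1.14 ± 0.0843 on the log2 scale) and 1.34-fold lower than HOXA9+MDHD (-0.42 ± 0.0843). HOXA9+MDHD was 1.64-fold lower than HOXA9+MIY (-0.72 ± 0.0843).

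Lpl, the lipase, was low wherever full-length Meis1 was present and very uneven with the truncated form. HOXA9+MEIS1 arrays had 6.68, 7.13, 6.79 and 6.81, with a mean of 6.85 ± 0.196 (SD, n = 4). HOXA9+MDHD arrays had 8.42, 9.27, 7.80 and 10.90, with a mean of 9.10 ± 1.34, and HOXA9+MIY arrays 9.29, 9.40, 9.25 and 9.09, with a mean of 9.26 ± 0.130 (SD, n = 4 each). All HOXA9+MEIS1 arrays lay below all others. HOXA9+MEIS1 was 5.31-fold lower than HOXA9+MIY (-2.41 ± 0.484 on the log2 scale) and 4.74-fold lower than HOXA9+MDHD (-2.25 ± 0.484). HOXA9+MDHD and HOXA9+MIY overlapped, and their difference of -0.16 ± 0.484 was smaller than its own error.

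The spread of Lpl within HOXA9+MDHD followed the array numbers. Both number 1 arrays, 8.42 at week 4 and 7.80 at week 3, lay below every HOXA9+MIY array. Of the number 2 arrays, 10.90 at week 3 was the highest of the 12, and 9.27 at week 4 lay inside the HOXA9+MIY range. With the number 1 arrays left out the HOXA9+MDHD minus HOXA9+MIY difference of Lpl was 0.82 ± 0.327, and with the number 2 arrays left out it was -1.15 ± 0.136, a change of sign. The HOXA9+MEIS1 minus HOXA9+MDHD difference was -3.23 and -1.26 in the same settings, so its direction did not depend on them. The number 1 arrays were also those with the higher signal on the 3 Meis1 probe sets that separate full-length from truncated Meis1, and whether that plays a part in the Lpl values was not tested.

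**Figure D2:**
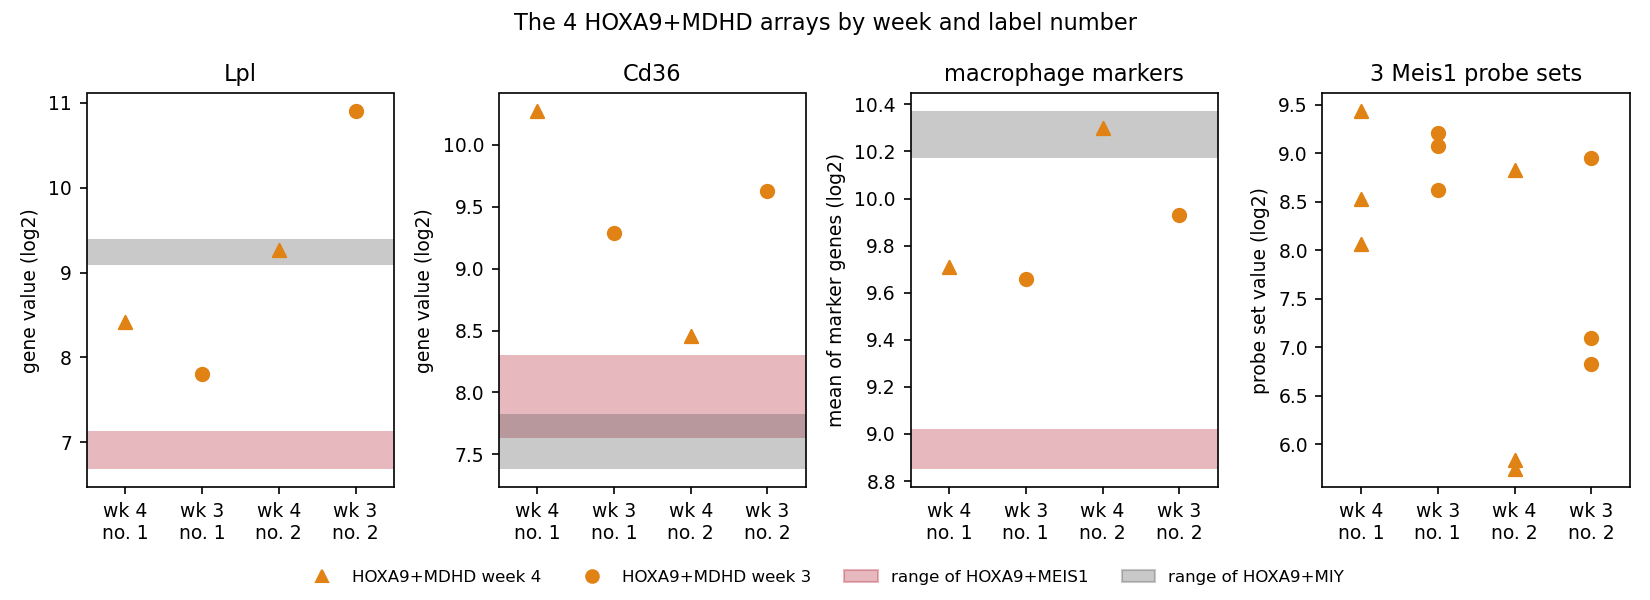
The 4 HOXA9+MDHD arrays by label number and week (horizontal axis) for Lpl, Cd36, the mean of 11 macrophage marker genes and the 3 Meis1 probe sets that separate full-length from truncated Meis1 (vertical axes, log2), with the ranges of HOXA9+MEIS1 and HOXA9+MIY as bands in the panels other than that of Meis1. Lpl is below the HOXA9+MIY band on number 1 arrays and inside or above it on number 2 arrays, and Cd36 is above both bands on all 4.

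Cd36, the fatty acid receptor, went another way from the other 3 genes. HOXA9+MEIS1 arrays had 8.30, 8.27, 8.20 and 7.63, with a mean of 8.10 ± 0.318 (SD, n = 4). HOXA9+MDHD arrays had 10.27, 8.46, 9.29 and 9.63, with a mean of 9.41 ± 0.752, and HOXA9+MIY arrays 7.63, 7.83, 7.54 and 7.38, with a mean of 7.60 ± 0.190 (SD, n = 4 each). The truncated Meis1 gave the highest gene values, with no overlap with either of the other conditions. The gap to HOXA9+MEIS1 was narrow, 8.46 against 8.30. HOXA9+MDHD was 3.53-fold higher than HOXA9+MIY (1.82 ± 0.292 on the log2 scale), and HOXA9+MEIS1 was 2.48-fold lower than HOXA9+MDHD (-1.31 ± 0.292). HOXA9+MEIS1 and HOXA9+MIY overlapped, and their difference was 0.51 ± 0.292, or 1.42-fold. The array with the highest Cd36, number 1 at week 4, was not the array with the highest Lpl.

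In the fit over all genes, a call means an adjusted p below 0.05 (limma, Benjamini-Hochberg). In HOXA9+MEIS1 against HOXA9+MIY 3 of the 4 genes were called, all lower, where 10.8% of all genes were called, 5.25% higher and 5.52% lower. In HOXA9+MDHD against HOXA9+MIY 3 were called, 1 higher and 2 lower, where 1.97% of all genes were, 0.942% higher and 1.03% lower. In HOXA9+MEIS1 against HOXA9+MDHD all 4 were called lower, where 4.39% of all genes were called, 2.28% higher and 2.11% lower. Because the genes were picked with these contrasts known, these calls are no test of them and nothing is read from the counts. The comparisons share arrays and are not independent of each other.

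Single probe sets showed how evenly each gene moved along its length. All 12 Apoe probe sets were lower with full-length Meis1 than in HOXA9+MIY, with differences of -2.68 to -0.15, and for 11 of them the arrays did not overlap. The exception was probe set 5148350, which read 7.14 in HOXA9+MEIS1, 7.26 in HOXA9+MDHD and 7.29 in HOXA9+MIY. All 12 were also lower in HOXA9+MDHD than in HOXA9+MIY, without overlap for 10. In HOXA9+MEIS1 all 12 were lower than in HOXA9+MDHD, without overlap for only 7. Apoe probe set 5293248 moved most, with means of 7.99 in HOXA9+MEIS1, 9.28 in HOXA9+MDHD and 10.67 in HOXA9+MIY. The gene value of Apoe, a robust middle of its probe sets, is thus smaller than the difference on several of them. Apoc2 rested on 2 probe sets that differed alike, at -3.28 and -3.26.

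Of 24 Lpl probe sets 19 passed the filter on dim signal, and all 19 were lower with full-length Meis1 than in HOXA9+MIY, with differences of -3.53 to -0.15 with a median of -2.85, without overlap for 16. The filter used the mean over all 12 arrays, so probe sets dim in HOXA9+MEIS1 could pass through the other conditions. The direction of such probe sets is no separate support. Probe set 4367053, at -3.53, read 4.72 in HOXA9+MEIS1, below the filter level of 6.2592, and 8.25 in HOXA9+MIY. Of the Lpl probe sets left out, 4627111 differed by 0.14 and the others were lower in HOXA9+MEIS1. Lpl probe set 5463891 was bright but flat, with 8.31 in HOXA9+MEIS1, 8.14 in HOXA9+MDHD and 8.51 in HOXA9+MIY. Of the 19, 18 were highest on the HOXA9+MDHD week 3 number 2 array, so that the high value there was not the work of a single probe set. Of 23 Cd36 probe sets 18 passed, and all 18 were higher in HOXA9+MDHD than in HOXA9+MIY, by 0.78 to 2.08, without overlap for 17. All 18 were lower in HOXA9+MEIS1 than in HOXA9+MDHD, at -1.56 to -0.98, but without overlap for only 8. Of the 18, 16 were highest on the HOXA9+MDHD week 4 number 1 array. Between HOXA9+MEIS1 and HOXA9+MIY the Cd36 probe sets did not share a direction, 16 being higher and 2, numbers 5519957 and 4318284, lower in HOXA9+MEIS1, at -0.43 and -0.38.

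**Figure D3:**
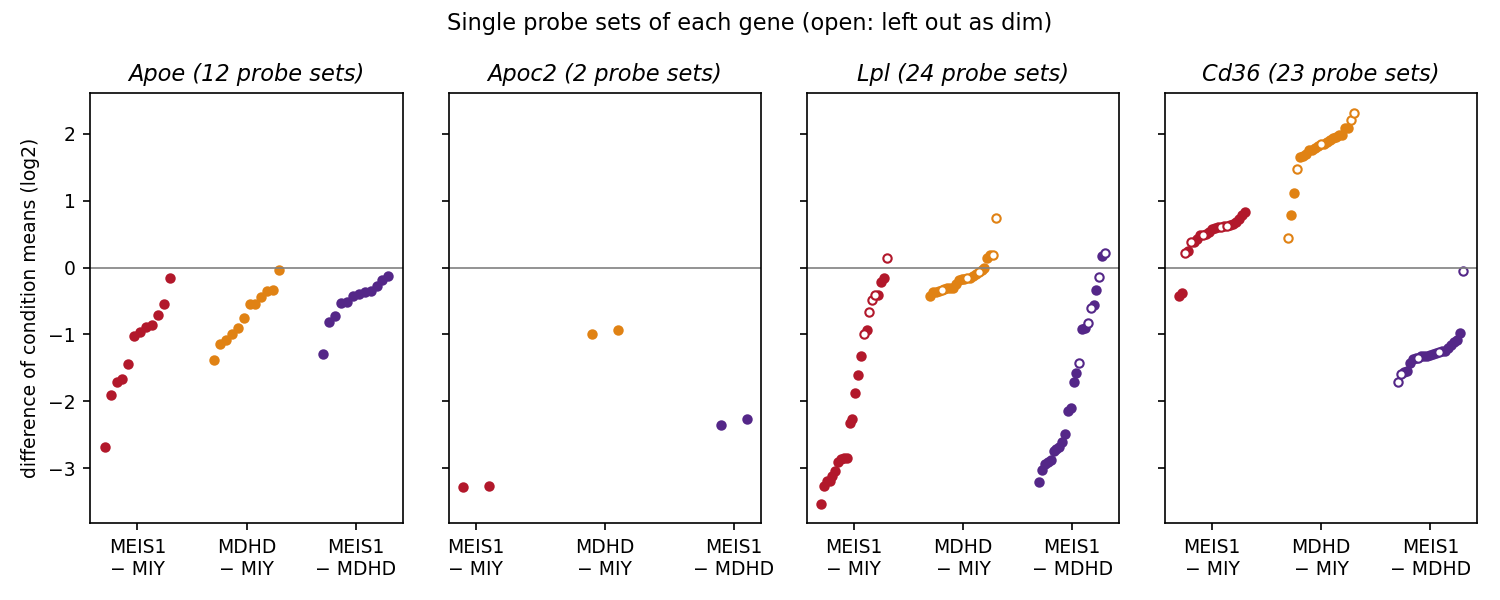
Difference of condition means (vertical axis, log2) on every probe set of Apoe, Apoc2, Lpl and Cd36 for 3 pairs of conditions (horizontal axis, sorted within a pair), with probe sets below the filter on dim signal as open points. The filled Lpl points run from -3.53 to -0.15 in HOXA9+MEIS1 minus HOXA9+MIY, and the filled Cd36 points from 0.78 to 2.08 in HOXA9+MDHD minus HOXA9+MIY.

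Between the weeks, which played no part in the choice of the genes, Apoe alone of the 4 passed the test. It was lower at week 4 than at week 3 in all 3 conditions on average, with 8.17 at week 4 and 8.49 at week 3 in HOXA9+MEIS1, 8.63 and 8.86 with the truncated form, and 9.36 and 9.57 in HOXA9+MIY (n = 2 each). It fell by 0.25 ± 0.0688 on the log2 scale (95% interval -0.40 to -0.10, limma, Benjamini-Hochberg adjusted p = 0.0105), and was lower at week 4 in 5 of 6 pairs of the same condition and number. The 12 Apoe probe sets were all lower at week 4, with differences of -0.48 to -0.03. With the week, 39.8% of all genes were called and 28.1% were called lower, so that 1 gene of 4 is not above the share of all genes.

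The other 3 genes did not pass between weeks. Apoc2 differed by -0.10 (95% interval -0.35 to 0.15, limma adjusted p = 0.561) and was lower at week 4 in 3 of 6 pairs. Lpl differed by -0.07 (-0.93 to 0.79, limma adjusted p = 0.913), where the HOXA9+MDHD pairs alone moved by 0.63 and -1.63. Cd36 differed by 0.18 (-0.34 to 0.70, limma adjusted p = 0.600) and was higher at week 4 in 5 of 6 pairs. The exception was the HOXA9+MDHD pair of number 2, at -1.17, and without its week 4 array Cd36 was called, with a difference of 0.44 (limma, adjusted p = 0.0106).

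Whether the conditions differed more at one week than at the other was tested as an interaction. The HOXA9+MEIS1 minus HOXA9+MIY difference of Apoc2 was -3.37 at week 4 and -3.17 at week 3, that of Apoe -1.19 and -1.08, that of Lpl -2.45 and -2.37, and that of Cd36 0.56 and 0.45. For HOXA9+MDHD minus HOXA9+MIY the values were -0.87 and -1.04 for Apoc2, -0.72 and -0.71 for Apoe, -0.50 and 0.18 for Lpl, and 1.63 and 2.00 for Cd36. Lpl was thus the gene whose sign differed between weeks. None of the 4 genes passed in any of 3 pairs of conditions (limma, adjusted p between 0.792 and 0.999). No gene of the 20711 passed either, a share of 0%, while 1358, 1011 and 1557 genes had an unadjusted p under 0.05 for HOXA9+MEIS1 against HOXA9+MIY, HOXA9+MDHD against HOXA9+MIY and HOXA9+MEIS1 against HOXA9+MDHD. The intervals were wide, reaching from -2.99 to 1.63 for Lpl in HOXA9+MDHD against HOXA9+MIY.

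Apoc2 and Apoe lie in one cluster of apolipoprotein genes on chromosome 7, with Apoc4 and Apoc1 between them in the RefSeq order (GRCm38.p6). The 2 genes in between were flat. Apoc4, a minor component of triglyceride-rich particles, averaged 8.12 ± 0.148 in HOXA9+MEIS1, 8.25 ± 0.274 in HOXA9+MDHD and 8.34 ± 0.313 in HOXA9+MIY (SD, n = 4 each). It differed from HOXA9+MIY by -0.23 in HOXA9+MEIS1 and by -0.09 in HOXA9+MDHD (limma, Benjamini-Hochberg adjusted p = 0.409 and 0.858). Apoc1, which slows lipoprotein uptake, was read by 1 probe set and averaged 7.20 ± 0.153, 7.18 ± 0.170 and 7.36 ± 0.163, differing by -0.16 and -0.17 (limma, adjusted p = 0.470 and 0.548). The arrays of all conditions overlapped for both. Apoc1 was as dim as the fat cell gene Adipoq, which averaged 7.23, 7.27 and 7.19, so little can be read from its flat values. A gene model, Gm44805, overlaps Apoc2 in the annotation, and signal from it cannot be told apart from that of Apoc2 here.

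**Figure D4:**
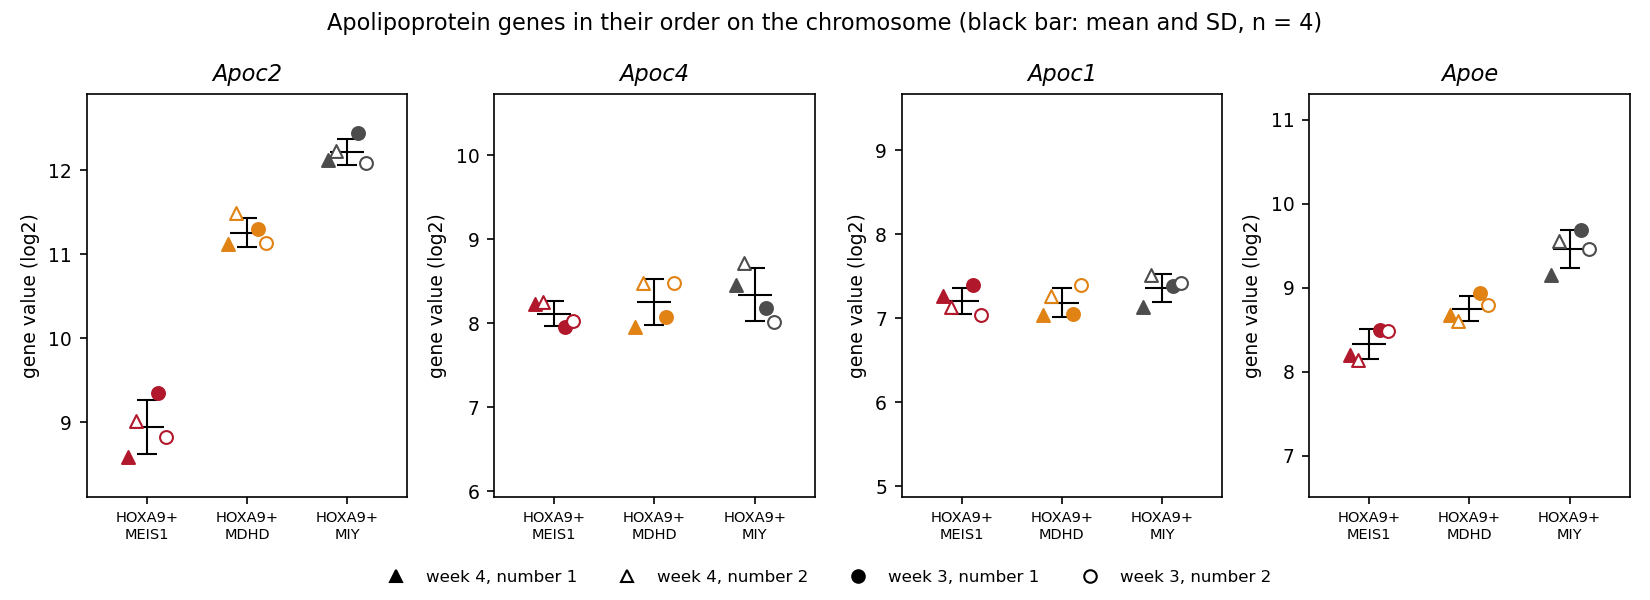
Log2 gene value (vertical axis, each panel spanning the same number of log2 units) of the apolipoprotein genes Apoc2, Apoc4, Apoc1 and Apoe on each array by condition, with week 4 as triangles, week 3 as circles, and mean and SD of 4 arrays as black bars. Apoc2 and Apoe differ between the conditions, while Apoc4 averages 8.12, 8.25 and 8.34 and Apoc1 7.20, 7.18 and 7.36 in HOXA9+MEIS1, HOXA9+MDHD and HOXA9+MIY.

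Markers of macrophages and neutrophils had the same order of conditions as Apoc2 and Apoe, lowest in HOXA9+MEIS1 and highest in HOXA9+MIY on average. Lpl was also lowest in HOXA9+MEIS1, but HOXA9+MDHD and HOXA9+MIY had no clear order for it. Cd36 did not have this order. The mean of 11 monocyte and macrophage markers lay between 8.85 and 9.02 in HOXA9+MEIS1, between 9.66 and 10.30 in HOXA9+MDHD and between 10.17 and 10.37 in HOXA9+MIY. Some were dim in HOXA9+MEIS1, where Mrc1 averaged 6.29 and Ctss 6.83, not far above the filter level of 6.2592. In HOXA9+MEIS1 against HOXA9+MIY 8 of the 11 were called lower, among them Ctss, a lysosomal protease, at -3.46, and Csf1r, the receptor for macrophage colony-stimulating factor, at -2.99. In the same comparison Emr1, an adhesion receptor of macrophages, was called higher by 1.06. In HOXA9+MDHD against HOXA9+MIY 4 were called lower and 1 higher. The mean of 8 neutrophil markers lay between 8.58 and 9.07, 9.20 and 10.74, and 10.81 and 11.55 in HOXA9+MEIS1, HOXA9+MDHD and HOXA9+MIY. The mean of 9 platelet markers ranged from 7.88 to 8.23 in HOXA9+MEIS1, from 8.18 to 8.51 in HOXA9+MDHD and from 7.87 to 8.34 in HOXA9+MIY, and Pf4, a platelet chemokine, was called lower in HOXA9+MEIS1 than in HOXA9+MIY, at -0.69. The mean of 6 erythroid markers ranged from 8.50 to 8.61, from 8.38 to 8.62 and from 8.13 to 8.38 in the same order, so that HOXA9+MEIS1 and HOXA9+MIY did not overlap. Of these markers Hbb-b1, a globin gene, was called higher against HOXA9+MIY by 1.54 with either form of Meis1. The other 5 were not called, and in HOXA9+MEIS1 they differed from HOXA9+MIY by only -0.06 to 0.14. The shift of the mean thus rested mostly on Hbb-b1. The mean of 6 mast cell markers ranged from 8.61 to 8.86, from 8.45 to 9.65 and from 8.46 to 9.04, with Gata2 called higher by 1.02 in HOXA9+MEIS1 against HOXA9+MIY. The others were not called there, with Cpa3 and Kit at 0.54 and 0.36 and Fcer1a, Hdc and Ms4a2 at -0.65, -0.39 and -0.37. The mean of 9 adipocyte and stroma markers ranged from 7.55 to 7.61, from 7.46 to 7.76 and from 7.42 to 7.50, and Pdgfrb, a growth factor receptor of stroma, was called higher against HOXA9+MIY by 1.71 in HOXA9+MEIS1 and by 0.93 in HOXA9+MDHD. Fabp4 was called lower in HOXA9+MEIS1, at -0.49. In HOXA9+MDHD against HOXA9+MIY the fat cell genes Adipoq, Lep, Plin, Cidec and Fabp4 differed by 0.08, 0.28, -0.08, -0.10 and -0.13. None of these was called, nor was the stroma gene Cxcl12, at 1.08. Within HOXA9+MDHD the mean of the 9 adipocyte and stroma markers was 7.46 on the week 4 number 2 array, which had the lowest Cd36 of the condition, and 7.74 to 7.76 on the other 3. On the HOXA9+MDHD arrays the macrophage mean was 9.71 at week 4 and 9.66 at week 3 for number 1, and 10.30 and 9.93 for number 2. The part of such cells in the values of the 4 genes was not tested.

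The genes with the most similar profiles were found by the root mean square difference of centred log2 values over the 12 arrays. Candidates were 15301 genes with at least 2 probe sets, without gene models and without the 4 genes themselves. Nearest to Apoc2 were Ctss at 0.289, Ly6a, Csf1r, Cybb and Gpnmb at 0.353, and the HOXA9+MEIS1 minus HOXA9+MIY difference of these lay between -3.46 and -2.87. Nearest to Apoe were Ly6i at 0.170, Aldh3b1, Mertk, Pld4 and Csf2ra at 0.211. Nearest to Lpl were Mmp13, a collagenase, at 0.423, the cytokine genes Il1b and Il1a, the lectin gene Clec4n and Cp at 0.517. Nearest to Cd36 were Gem at 0.393, Btla, Serpina3f, Ccdc80 and Stxbp6 at 0.405, which were 1.02 to 1.52 higher in HOXA9+MDHD than in HOXA9+MIY. The condition differences of the nearest genes follow from how these genes were picked and are no separate support. Between the 4 genes the distances were larger, from 0.818 for Apoc2 with Lpl to 1.68 for Apoc2 with Cd36. This distance also depends on the size of the differences, so genes with the same order of conditions can stand apart. The points of these profiles share the conditions and the arrays.

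Around these genes, 76 other lipid genes of 79 listed could be measured. In HOXA9+MEIS1 against HOXA9+MIY 6 were called higher and 19 lower (32.9% of the 76, beside 10.8% of all genes), in HOXA9+MDHD against HOXA9+MIY 3 higher and 5 lower (10.5%, beside 1.97%), and in HOXA9+MEIS1 against HOXA9+MDHD 6 higher and 7 lower (17.1%, beside 4.39%). Their median log2 differences were -0.05, -0.09 and 0.01, against -0.01, -0.01 and 0.01 over all genes. The lists were chosen with earlier results of these data known. These shares, and the adjusted p-values of list genes between conditions given below, thus describe the arrays and are no test of the lists. Most lipid genes did not pass, and those that did were spread over all 6 groups in HOXA9+MEIS1 against HOXA9+MIY. The count of 8 for HOXA9+MDHD against HOXA9+MIY moved with single arrays. It was 17 without the HOXA9+MDHD week 4 number 2 array, 1 without HOXA9+MDHD week 4 number 1, 3 and 5 without HOXA9+MDHD week 3 number 2 and number 1, 5 without HOXA9+MEIS1 week 3 number 1, and 1 to 2 without any 1 of the 4 HOXA9+MIY arrays. Single calls in this comparison were lost in between 6 of 24 alternatives, for Pparg, and 22 of 24, for Pltp.

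Among 13 lipoprotein and scavenger receptors, 1 was called higher and 5 lower in HOXA9+MEIS1 against HOXA9+MIY. Lrp1, a large receptor that binds Apoe-bearing remnants, read 8.02, 8.29, 7.91 and 7.93 in HOXA9+MEIS1, 8.97, 9.86, 8.98 and 9.36 on the HOXA9+MDHD arrays, and 10.01, 10.22, 10.24 and 10.05 in HOXA9+MIY. Its conditions did not overlap. Lrp1 was 4.27-fold lower in HOXA9+MEIS1 than in HOXA9+MIY (-2.09 ± 0.163, limma, adjusted p = 7.86e-06) and 1.79-fold lower in HOXA9+MDHD (-0.84 ± 0.163, adjusted p = 0.0241). Vldlr, another receptor for Apoe-bearing particles, went the opposite way, with 10.08, 10.15, 9.55 and 9.43 in HOXA9+MEIS1, 9.12, 8.80, 8.36 and 7.62 on the HOXA9+MDHD arrays, and 8.48, 8.72, 7.92 and 8.18 in HOXA9+MIY. All HOXA9+MEIS1 arrays were above all others. With full-length Meis1, Vldlr stood 2.79-fold above HOXA9+MIY (1.48 ± 0.150, limma, adjusted p = 5.60e-05) and 2.51-fold above HOXA9+MDHD (1.33 ± 0.150, adjusted p = 3.23e-04).

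Among the listed receptors for modified lipoproteins, those called against HOXA9+MIY were lower. Msr1, the class A scavenger receptor, differed from HOXA9+MIY by -0.76 in HOXA9+MEIS1 and by -0.66 in HOXA9+MDHD, and Cxcl16, a chemokine that also binds oxidised lipoprotein, by -0.63 in HOXA9+MEIS1 (limma, adjusted p = 0.00267, 0.0287 and 0.00302). The sorting receptor Sorl1 differed from HOXA9+MIY by -0.57 in HOXA9+MEIS1 and by -0.62 in HOXA9+MDHD (limma, adjusted p = 0.00566 and 0.0180). Olr1, a receptor for oxidised lipoprotein, and Scarb1, the receptor for high-density lipoprotein, were higher in HOXA9+MEIS1 than in HOXA9+MDHD, by 0.96 and 0.30 (limma, adjusted p = 0.0203 and 0.0224). These calls were lost in 9 and 8 of 24 alternatives. In HOXA9+MEIS1 against HOXA9+MIY Olr1 and Scarb1 differed by 0.46 and 0.10 and were not called (limma, adjusted p = 0.212 and 0.413).

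Of 15 genes for lipoprotein particles and lipases, 2 were called in HOXA9+MEIS1 against HOXA9+MIY. Angptl4, a secreted inhibitor of lipoprotein lipase, was higher by 0.35 ± 0.0853 (limma, adjusted p = 0.0199), and Pltp, which moves phospholipid between particles, fell by 0.64 ± 0.0861 (adjusted p = 3.96e-04). Pltp also fell in HOXA9+MDHD, with a difference of -0.37 (limma, adjusted p = 0.0496). The other 13 genes of this group did not pass in HOXA9+MEIS1 against HOXA9+MIY.

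Of 16 storage and hydrolysis genes, 7 were called lower and none higher in HOXA9+MEIS1 against HOXA9+MIY, while none passed in HOXA9+MDHD against HOXA9+MIY. The 7 included Dgat2, which makes triglyceride, at -1.08 (limma, adjusted p = 0.0364), Lipa, the acid lipase of lysosomes, at -0.61 (adjusted p = 3.28e-04), and Soat1, which esterifies cholesterol, at -0.51 (adjusted p = 0.00442). They also included Aadacl1, a cholesterol ester hydrolase now called Nceh1, at -0.50 (limma, adjusted p = 9.11e-04). In HOXA9+MDHD Dgat2 had the largest difference of the group, -0.85 against HOXA9+MIY, and did not pass. Mgll, the monoglyceride lipase, was higher in HOXA9+MEIS1 than in HOXA9+MDHD by 0.98 (limma, adjusted p = 0.0105).

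Of 10 genes for cholesterol efflux and lipid-sensing nuclear receptors, 1 was called higher and 4 lower in HOXA9+MEIS1 against HOXA9+MIY. Abca1, the pump that loads cholesterol onto apolipoproteins, read 7.19, 7.18, 7.34 and 7.19 in HOXA9+MEIS1, 8.12, 8.54, 8.03 and 8.93 on the HOXA9+MDHD arrays, and 8.33, 8.55, 8.22 and 8.17 in HOXA9+MIY. HOXA9+MEIS1 lay below the rest, and the other conditions overlapped. Abca1 was 2.13-fold lower in HOXA9+MEIS1 than in HOXA9+MIY (-1.09 ± 0.166, limma, adjusted p = 9.55e-04). Its highest value was on the same HOXA9+MDHD array as that of Lpl, number 2 at week 3. Pparg, a nuclear receptor that drives Cd36 in macrophages, was lower in both, at -0.26 in HOXA9+MEIS1 and -0.34 in HOXA9+MDHD (limma, adjusted p = 0.0113 and 0.0129), while Cd36 itself stood higher in HOXA9+MDHD. Abcg1, a second efflux pump, fell by 0.34, and Mylip, a ligase that marks lipoprotein receptors for breakdown, rose by 0.41 in HOXA9+MEIS1 (limma, adjusted p = 0.00180 and 0.0274).

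Among 11 genes for fatty acid uptake, binding and activation, 2 were called higher and 2 lower in HOXA9+MEIS1 against HOXA9+MIY, and 3 higher in HOXA9+MDHD against HOXA9+MIY. The acyl-CoA synthetases Acsl3 and Acsl4 were higher in both, by 0.55 and 0.37 in HOXA9+MEIS1 (limma, adjusted p = 0.00200 and 3.95e-04) and by 0.43 and 0.24 in HOXA9+MDHD (adjusted p = 0.0351 and 0.0305). The fatty acid transporter Slc27a1 was higher in HOXA9+MDHD by 0.39 (limma, adjusted p = 0.0351). Cav1, the caveolae protein, fell by 1.31 in HOXA9+MEIS1, and Fabp4, a fatty acid binding protein of macrophages and fat cells, fell by 0.49 (limma, adjusted p = 0.0283 and 0.0136). Among 11 fatty acid oxidation genes only Acadl, a dehydrogenase for long-chain acyl-CoA, was called, higher by 0.58 in HOXA9+MEIS1 (limma, adjusted p = 1.44e-04).

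**Figure D5:**
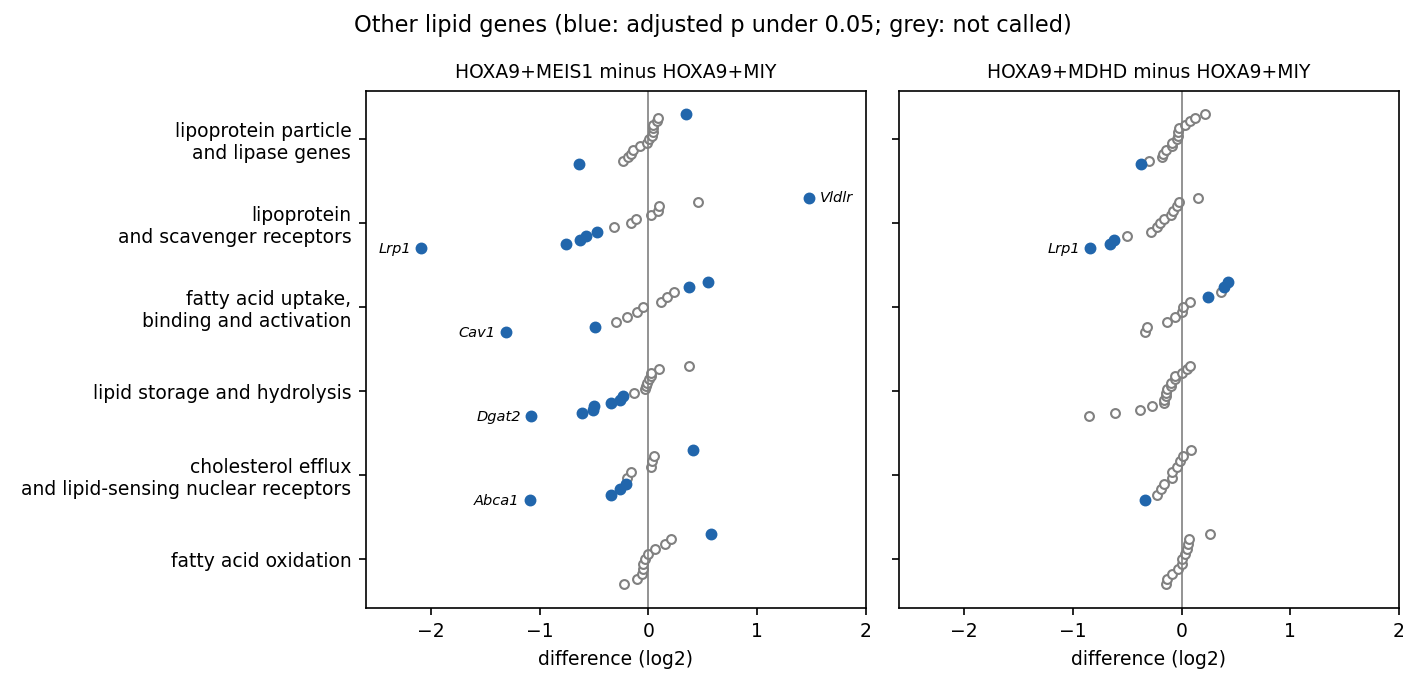
Log2 difference (horizontal axis) of the 76 other lipid genes in HOXA9+MEIS1 minus HOXA9+MIY and HOXA9+MDHD minus HOXA9+MIY, 1 point a gene in 6 groups (vertical axis, sorted within a group), blue where called and grey otherwise. Lrp1 at -2.09 and Vldlr at 1.48 are the ends of the left panel, and in the right panel 8 genes are blue.

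Between the weeks 14 of the 76 genes were called higher and 16 lower at week 4 than at week 3, 39.5% against 39.8% of all genes, with medians of 0.03 and -0.02. Of the oxidation genes 6 of 11 fell and 1 rose. The gene that rose was Cpt1a, which starts the import of fatty acids into mitochondria, by 0.31 (limma, adjusted p = 2.64e-04), and it was chosen after its value was seen. Those that fell included Slc25a20, the acylcarnitine carrier, by 0.51, and Hadhb, a subunit of the trifunctional protein, by 0.45 (limma, adjusted p = 4.60e-05 and 2.04e-05). Of the efflux and nuclear receptor genes 5 of 10 rose and none fell, led by Ppard, by 0.55 (limma, adjusted p = 5.81e-05). The triglyceride synthesis genes Lpin1 and Dgat1 rose by 0.93 and 0.56 (limma, adjusted p = 1.81e-06 and 1.08e-04). Among receptors Vldlr rose by 0.72 and Lrp8, a further receptor for Apoe, fell by 0.57 (limma, adjusted p = 4.59e-04 and 6.80e-06). Angptl4 fell by 0.42 and Lmf1, which lipoprotein lipase needs to fold, fell by 0.21 (limma, adjusted p = 3.66e-04 and 0.00560).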

How the data were processed

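Total RNA from 12 samples was hybridised to 1-colour Affymetrix exon arrays, 1 array per sample. Per the submitters' processing notes, the authors ran Affymetrix Expression Console with RMA (their versions are not given in the sources used here), and each deposited value is the log2 signal of an exon-level probe set, running from 0 to 14.93 with array medians between 6.26 and 6.30. Precision is limited by how many arrays there are. Of 1256831 probe sets, 318760 named 1 gene symbol. Of these, 233798 had a mean above 6.2592, which is the 50th percentile over the whole table, and were kept and joined per gene by median polish. A model with condition and week was fitted to 20711 genes over all 12 arrays in R 4.3.3 by the two-sided moderated test of limma 3.58.1 (eBayes with a trend), with Benjamini-Hochberg adjustment over all genes, and a second model added their interaction. The procedure was tested on simulated data. Gene symbols came from the platform annotation, older ones matched through RefSeq synonyms, and plots were drawn with matplotlib 3.10.9. Errors after ± are standard errors from this fit unless given as SD.

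The 4 genes and the lists, written from general knowledge, were chosen with earlier results of these data known. From each list up to 4 called genes with the largest change per pair of conditions were named, or the largest where none was called, and up to 2 between weeks. Nearest profiles were the 5 genes with the smallest difference. The remaining genes named are the markers and those whose role bears on the 4. Whether numbers 1 and 2 pair arrays across conditions was checked from number 1 minus number 2 differences across genes: 6 correlations within a week ran from -0.112 to 0.132 and 1 exceeded 0.1, so the numbers were not used as pairs. The alternatives were other filters, the mean of probe sets, quantile normalization, median centring, a replicate block, models without a term, single weeks, 2 conditions alone and leaving out arrays. A few listed lipid genes were not analysed here.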

Additional observations from a re-analysis of the deposited data

Results flagged for a closer look

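Among 108 sets of 4 arrays, 1 for each of 36 named genes in each condition, 5 held an array far from the other 3 by a gap test that chance passes in about 1 in 20 sets. Cd36 read 7.63 on the HOXA9+MEIS1 week 3 number 2 array and 8.20 to 8.30 on the other 3. Abca1 read 7.34 on the HOXA9+MEIS1 week 3 number 1 array and 7.18 to 7.19 on the others. Soat1 read 11.34 on the HOXA9+MEIS1 week 4 number 2 array and 11.04 to 11.05 on the others. Scarb1 read 10.79 on the HOXA9+MDHD week 4 number 2 array and 10.67 on the others. Mylip read 9.47 on the HOXA9+MIY week 4 number 1 array and 9.06 to 9.12 on the others.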

How the results depend on the processing

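The condition differences of the 4 genes kept their direction where called in all alternatives run, and the cause of the shifts that follow was not tested. Lpl in HOXA9+MEIS1 minus HOXA9+MIY was -2.41, and -2.07 without a filter on dim probe sets and -2.21 with the mean of the probe sets. Apoe between weeks, -0.25, lost its call without a condition term (-0.25, limma adjusted p = 0.528), and Cd36 between weeks ran from -0.01 to 0.44 with 1 array left out, called only without the HOXA9+MDHD week 4 number 2 array. The numbers of called genes moved most. Over all genes they were 2231 (HOXA9+MEIS1 against HOXA9+MIY), 409 (HOXA9+MDHD against HOXA9+MIY) and 910 (HOXA9+MEIS1 against HOXA9+MDHD), and over the lipid lists 25, 8 and 13. In the same order they were 902, 35 and 297 with 12, 0 and 3 lipid genes without a week term; 917, 236 and 373 with 10, 4 and 5 at week 3 alone; and 809, 11 and 210 with 12, 0 and 2 at week 4 alone. With 2 conditions in the fit, HOXA9+MDHD against HOXA9+MIY gave 147 and 1 and HOXA9+MEIS1 against HOXA9+MDHD 520 and 8. With a replicate block, a fit that takes label numbers as pairs, 4 lipid genes were called in HOXA9+MDHD against HOXA9+MIY, and no other count moved by over 1.5 times. With 1 array left out, HOXA9+MDHD against HOXA9+MIY called 139 to 987 genes and 1 to 17 lipid genes, the most without the HOXA9+MDHD week 4 number 2 array, and HOXA9+MEIS1 against HOXA9+MDHD 602 to 1007 genes. A further 2 settings were chosen after seeing the data. Without both number 1 arrays of HOXA9+MDHD, Lpl was 0.82 against HOXA9+MIY and -3.23 for HOXA9+MEIS1 minus HOXA9+MDHD, with 214 genes and 2 lipid genes called in HOXA9+MDHD against HOXA9+MIY. Without both number 2 arrays Lpl was -1.15 and -1.26, with 1109 and 17 called, and 8 lipid genes in HOXA9+MEIS1 against HOXA9+MDHD. Of single lipid gene values under these settings, 1034 kept their side of the threshold, 221 lost a call, 5 gained one and none changed sign. The number of calls in HOXA9+MDHD against HOXA9+MIY thus depended on single arrays.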
